A study of Mus musculus with 288 samples.

Results

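The nuclear receptor genes examined were Nr1d1 and Nr1d2, which encode REV-ERB alpha and REV-ERB beta, and Rora and Rorb, which encode ROR alpha and ROR beta. They were taken by gene symbol from 12 tables of TPM, an abundance corrected for transcript length and scaled to the same total in every library, 1 table for each of 6 tissues and 2 treatments, and all 4 of 4 were found among the 35904 genes listed. The tissues were heart, lung, kidney, liver, muscle and cerebellum, taken from male C57BL/6J mice aged 8 weeks, a common inbred strain with no transgene or induced deletion named in the labels. The mice were kept for 7 days either in room air (normoxia) or in intermittent hypoxia (IH), in which inspired oxygen cycled between 21% and 8% during the inactive phase, a mouse model of the oxygen swings of sleep apnoea. Both groups then spent 2 days in constant darkness and normoxia, so tissues were taken after the hypoxia had ended. Each tissue and treatment had 24 libraries, 3 at each of 8 time points set 3 hours apart from 1:30 to 22:30, which gives 288 libraries in all. The labels do not say what these hours were counted from, and times are given here as labelled.

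REV-ERB and ROR proteins bind the same DNA element, a short core sequence preceded by an A and T rich stretch, with opposite outcomes. ROR proteins activate transcription there, whereas REV-ERB proteins, which bind haem, recruit the NCoR and HDAC3 corepressor complex and silence it. The best known shared target is Arntl, which encodes the clock activator BMAL1. BMAL1 and its partner in turn drive Nr1d1 and Nr1d2 through E-box elements, and this stabilising loop of the circadian clock makes REV-ERB transcripts cycle widely in peripheral organs. Rora is transcribed in many tissues and is needed for the development of cerebellar Purkinje cells, whereas Rorb is known mainly from retina, pineal gland and parts of the brain.

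Totals per library lay between 989211 and 999188 TPM and no 2 libraries held identical values. Depth cannot be read from TPM and no counting interval is given. The summed markers of each tissue were, by median, highest in that tissue. Some libraries held markers of other tissues, such as normoxic heart replicate 2 at 19:30 with 2001 TPM of lung markers against a median of 1.02 TPM. The 2 libraries of lowest correlation with their own tissue are described here. The liver library of IH replicate 2 at 13:30 held 7385 TPM summed over 5 heart markers, against a median of 38.7 TPM in the 24 liver IH libraries. Its mean correlation with the other liver libraries was 0.696, and the cerebellum library of IH replicate 3 at 1:30 had the lowest correlation of that tissue, 0.766, with 8371 TPM of heart markers against a median of 523 TPM. Without the liver library the counts of members called below were the same, and without the cerebellum library Rorb was called in addition. In the lung, scaling factors of the libraries had a median of 0.913 in normoxia and 1.12 after IH, and the number of genes detected was 22694 ± 737 and 25455 ± 1529 (SD, n = 24 each). The heart differed the other way, with 25124 ± 1719 genes detected in normoxia and 21447 ± 688 after IH. On deposited TPM the median lung gene stood 0.21 higher after IH on the log2 scale, and on scaled TPM 0.08 lower, so every lung value below depends on which scale is named beside it. The number of genes detected was entered as a term in the test of mean level, and was not entered in the tests of curves or of tissue differences.

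In GENCODE M21 (build GRCm38) Nr1d1 lies on chromosome 11 from 98767932 to 98775333 on the minus strand. Its 3′ end overlaps that of Thra, the thyroid hormone receptor alpha gene on the plus strand (98740638 to 98769006), over 1075 bases, of which 263 are exonic in both genes. Nr1d2 is on chromosome 14 from 18204054 to 18239127 and Rorb on chromosome 19 from 18930605 to 19111196, both on the minus strand. Rora spans chromosome 9 from 68653786 to 69388246 on the plus strand. The 250 bases before the RefSeq start of both REV-ERB genes are shown because these 2 genes cycled together in most tissues. They come from build GRCm38.p6, are written 5′ to 3′ on the strand of the gene, and cover chr11:98775378-98775627 and chr14:18239107-18239356, both minus strand. Capitals mark matches to any of 4 motifs searched on both strands, the E-box CACGTG, its variant CACGTT, the receptor core site AGGTCA and the D-box TTATGTAA.
Nr1d1: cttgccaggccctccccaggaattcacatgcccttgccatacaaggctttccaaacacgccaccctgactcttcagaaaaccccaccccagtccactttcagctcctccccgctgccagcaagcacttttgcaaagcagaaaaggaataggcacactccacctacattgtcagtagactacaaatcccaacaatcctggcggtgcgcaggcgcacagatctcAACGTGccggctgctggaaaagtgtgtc
Nr1d2: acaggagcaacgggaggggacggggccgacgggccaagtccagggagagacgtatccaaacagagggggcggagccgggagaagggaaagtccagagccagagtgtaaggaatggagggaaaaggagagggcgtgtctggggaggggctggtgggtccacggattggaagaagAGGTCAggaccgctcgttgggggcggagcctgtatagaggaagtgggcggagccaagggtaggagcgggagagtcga
The Nr1d1 window held 1 match, CACGTT read on the opposite strand, beginning 28 bases before the start, and 3.85% of 32851 promoter windows of this length hold that motif. The Nr1d2 window held 1 core site, beginning 77 bases before the start, a motif present in 14.0% of the windows. No match to the canonical E-box (6.02% of windows) or the D-box (0.819%) was found in either window, which says only that those letters are not in these 250 bases. The window of Rora held none of the 4 motifs. Of the 2 windows listed for Rorb, the one at chr19:19111197-19111446 held none and the one at chr19:19001118-19001367 held 1 CACGTT match on the opposite strand.

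The first question is where each receptor was transcribed. Nr1d1 was highest in lung and muscle, Nr1d2 and Rora in cerebellum, and Rorb was above 1 TPM in cerebellum alone. TPM is a value per transcript length, so the genes can be set side by side. In normoxia, Nr1d1 averaged 48.9 ± 39.5 TPM in lung, 47.3 ± 39.4 in muscle, 29.5 ± 13.0 in cerebellum, 17.7 ± 13.6 in heart, 15.3 ± 15.6 in liver and 11.3 ± 10.49 in kidney (mean ± SD over 24 libraries and all time points). None of the 5 gaps between neighbours in this order exceeded the larger of their SDs, which are wide because the gene cycled. Nr1d2 averaged 50.8 ± 18.2 TPM in cerebellum, 32.6 ± 10.46 in muscle, 31.0 ± 18.9 in lung, 26.4 ± 13.6 in kidney, 19.7 ± 10.2 in heart and 14.1 ± 11.04 in liver, and again no neighbours differed by more than their SD. Liver was thus in the lower part of the order for both REV-ERB genes.

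Rora was steadier and its order clearer. It averaged 31.9 ± 7.92 TPM in normoxic cerebellum, where the lowest library (17.4 TPM) stood above the highest muscle library (16.8 TPM). Muscle followed with 12.9 ± 2.38, lung with 10.2 ± 1.86, liver with 8.51 ± 4.20, kidney with 8.46 ± 2.09 and heart with 3.39 ± 1.04 TPM. Lung and liver, and liver and kidney, did not differ beyond their SD, whereas the steps from muscle to lung and from kidney to heart did, with libraries that overlapped. In liver, replicate 3 was the highest of the 3 at 8 of 8 times in both treatments. In normoxia its libraries held 9.18 to 20.1 TPM, against 4.5 to 7.87 TPM in replicates 1 and 2. These levels across tissues are descriptions with no test.

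Rorb in normoxic cerebellum averaged 2.46 ± 1.16 TPM, with a lowest library of 1.24, a median of 2.13 and a highest of 6.14 TPM. No other tissue had a mean above 0.139 TPM in either treatment, and Rorb was listed at 0 in 5 normoxic and 8 IH liver libraries. The highest Rorb value outside the cerebellum was 0.442 TPM, in IH lung replicate 2 at 1:30, the lung library of lowest correlation (0.883). Because Rorb was below the filters outside the cerebellum, 19 of the 24 combinations of gene and tissue entered the tests, for treatment as well as for rhythm. These are whole tissues, in which fewer cells of a type and less RNA per cell cannot be told apart.

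**Figure D1:**
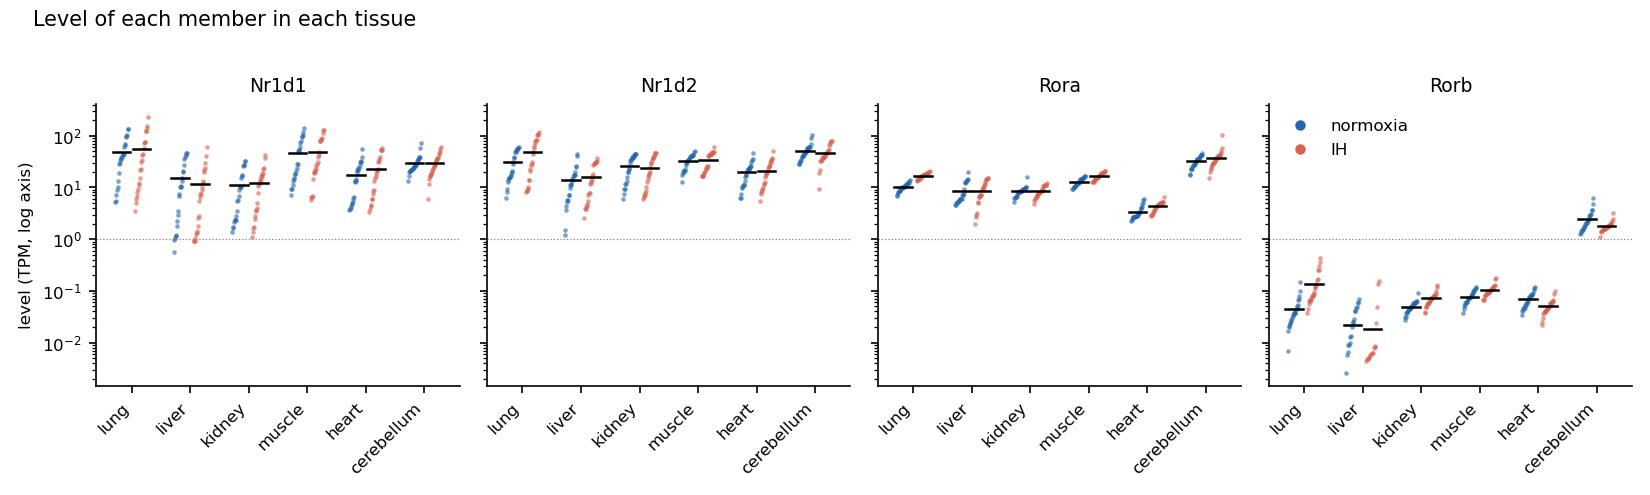
Level of each gene in TPM (log axis) in the 6 tissues. Each point is a library (24 per tissue and treatment, normoxia in blue and IH in red, spread sideways in order of value), black bars are means, the dotted line is 1 TPM, and libraries listed at 0 are left out. Rorb stands above 1 TPM in cerebellum alone, and in the 5 peripheral tissues both REV-ERB genes spread more than Rora relative to their means.

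The second question is which of the 4 genes kept a 24-hour rhythm in constant darkness. Both REV-ERB genes were rhythmic in lung, liver, kidney, muscle and heart, in normoxia and after IH alike, and in neither treatment in cerebellum. Rora was rhythmic in none of the 6 tissues, nor was Rorb in cerebellum. In each treatment 10 of the 19 combinations thus passed an adjusted p of 0.05 in a combined rank (JTK) and Lomb-Scargle test, whereas 6.81% of all genes tested over the 6 tissues were called in normoxia and 4.91% after IH. In normoxia this background was 7.92% in lung, 14% in liver, 14.3% in kidney, 2.69% in muscle, 0.723% in heart and 3.13% in cerebellum. After IH it was 9.98%, 7.05%, 3.05%, 6.35%, 3.44% and 0.0468% in the same order. In cerebellum after IH few genes of any kind were called, and the absence of a call for the REV-ERB genes is read against that.

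Nr1d1, the more strongly cycling of the pair, is the product of BMAL1 activity and also the repressor of its gene. In normoxic lung the 3 libraries of 7:30 held 135, 136 and 103 TPM and the 3 libraries of 16:30 held 5.33, 7.08 and 9.08 TPM. The groups at these times did not overlap and their means stood 17.4-fold apart. In liver, Nr1d1 fell from 41.2 ± 4.96 TPM at 4:30 to 0.917 ± 0.305 TPM at 22:30 (SD over 3 libraries), a 44.9-fold range, the widest of any tissue. The corresponding ranges were 12.8-fold in kidney, 10.1-fold in muscle and 8.92-fold in heart. In cerebellum the highest and lowest time points differed 2.28-fold. The high and low times were picked from the same values, so these ranges describe the curves and test nothing.

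A cosine of 24 hours was fitted to each curve, giving its mean level (MESOR), its amplitude and the time of its peak (acrophase). In normoxia the Nr1d1 amplitude was 126% of the MESOR in liver, 108% in kidney, 101% in muscle, 98.4% in lung and 94.3% in heart. An amplitude above 100% means that the fitted curve dips below 0, since the measured peaks were narrower than a cosine. The adjusted p of rhythm for Nr1d1 lay between 3.50e-08 (muscle) and 9.68e-07 (kidney) in these 5 normoxic tissues. After IH it lay between 1.48e-08 (muscle) and 1.40e-06 (liver). In cerebellum the cosine amplitude was 28.6% of the MESOR in normoxia and 31.9% after IH, with adjusted p of 0.699 and 1.

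Nr1d2, the paralogue with overlapping function, cycled with shallower curves. Normoxic lung libraries held 54.6, 60.8 and 58.3 TPM at 10:30 and 9.15, 6.39 and 8.03 TPM at 19:30, a 7.37-fold range with no overlap. The ranges in the other tissues were 13.4-fold in liver, 5.64-fold in kidney, 4.65-fold in heart and 2.78-fold in muscle. Amplitudes in normoxia were 84.5% of the MESOR in liver, 79.9% in lung, 64.6% in kidney, 56.99% in heart and 41.2% in muscle, each below the value of Nr1d1 in the same tissue. The call in normoxic heart (adjusted p = 0.000114) rested on replicate 3, without which the adjusted p was 0.222. In cerebellum the adjusted p of Nr1d2 was 0.0873 in normoxia and 1 after IH. On scaled TPM both cerebellar values passed (0.0451 and 0.0419), as did that of Nr1d1 after IH (0.0319).

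**Figure D2:**
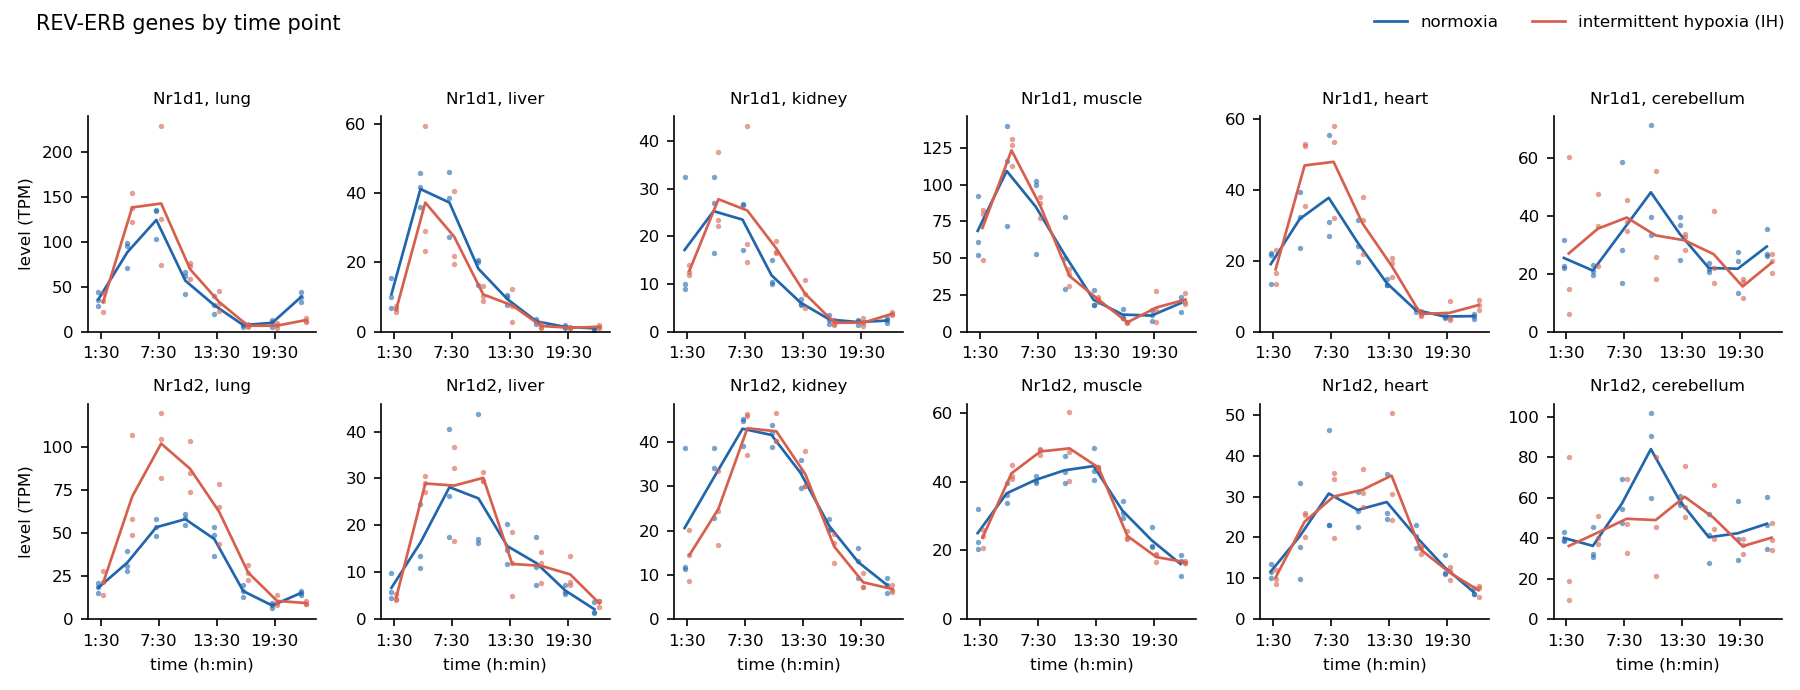
Level of Nr1d1 (top) and Nr1d2 (bottom) in TPM against labelled time in 6 tissues. Points are single libraries (3 per time and treatment), lines join the means, normoxia is blue and IH is red, and the axes start at 0. Both genes rise and fall once in 5 tissues, the cerebellar curves are shallower relative to their means, with the highest mean of Nr1d2 at 10:30 in normoxia, and the IH curve of Nr1d2 in lung has the higher mean at every time except 22:30.

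Nr1d1 peaked before Nr1d2 in every peripheral tissue. Fitted peaks of Nr1d1 in normoxia fell between 5.56 h in muscle and 6.99 h in heart, and those of Nr1d2 between 9.16 h in kidney and 10.4 h in heart. The lag of Nr1d2, computed in the same libraries, was 2.91 h in lung (95% interval 1.91 to 3.91), 2.70 h in liver (1.01 to 4.39), 3.31 h in kidney (2.34 to 4.28), 4.68 h in muscle (3.62 to 5.74) and 3.44 h in heart (2.23 to 4.65). After IH it ran from 2.09 h in lung (0.719 to 3.46) to 4.08 h in muscle (3.23 to 4.93). All 10 intervals lay above 0. The time points were 3 hours apart, so lags of this size rest on the fitted curves and not on resolved peaks.

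Muscle, the tissue with the longest lag, had the earliest Nr1d1 peak. Between neighbouring tissues the Nr1d1 acrophase differed by at most 0.617 h in normoxia, with every interval spanning 0. The earliest and the latest, muscle and heart, were 1.43 h apart (95% interval 0.165 to 2.70) in normoxia and 1.90 h apart (0.815 to 2.98) after IH. For Nr1d2 the ends of the order were kidney and heart in normoxia, 1.27 h apart with an interval of -0.232 to 2.78, and liver and heart after IH, 1.83 h apart (0.300 to 3.37). The ends were picked from the same fitted peaks, so these differences describe the order and test nothing.

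**Figure D3:**
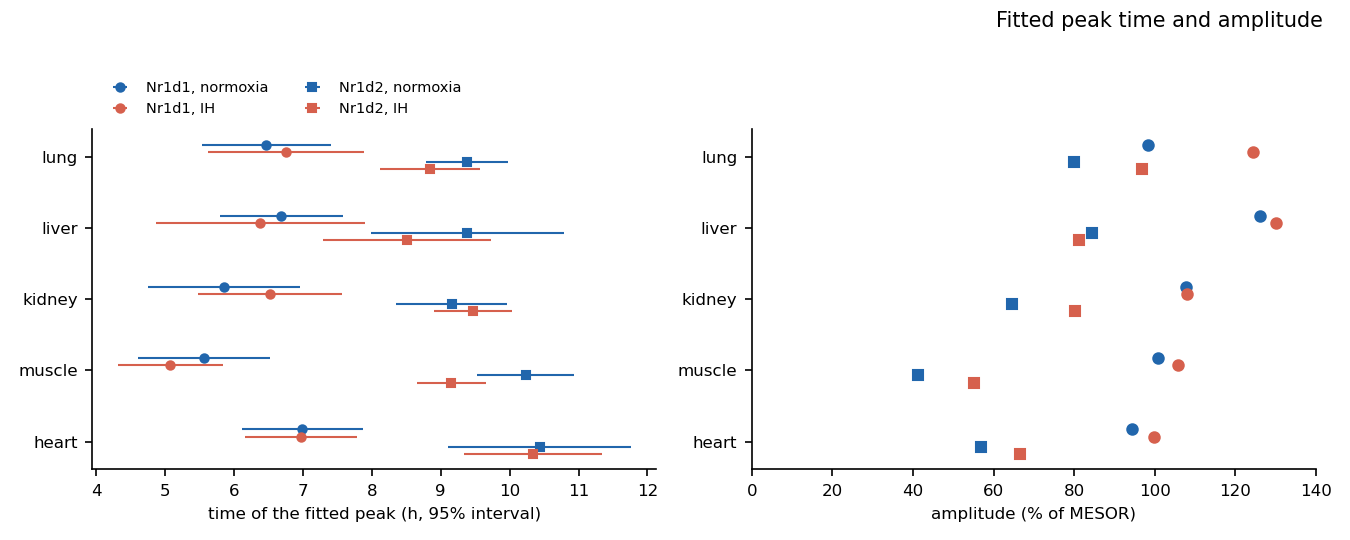
Left, time of the fitted peak of Nr1d1 (circles) and Nr1d2 (squares) in hours with 95% intervals, in the 5 tissues where both were rhythmic, normoxia blue and IH red. Right, amplitude as a percentage of the MESOR. Every Nr1d2 peak lies to the right of the Nr1d1 peak of its tissue, and every Nr1d1 amplitude exceeds that of Nr1d2 in these 5 tissues, the cerebellum being left out.

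The makeup of the REV-ERB transcript pool varied within a day. The parts of the offset peaks and of the unequal relative amplitudes in this were not tested. In normoxic lung the ratio of Nr1d1 to Nr1d2 averaged 2.72 at 4:30 and 0.471 at 16:30. In liver it went from 2.92 at 4:30 to 0.227 at 19:30, whereas in normoxic kidney its highest mean was 0.829, at 1:30, and after IH 1.15, at 4:30. The sum of both REV-ERB transcripts over the sum of Rora and Rorb, which bind the same element, also varied over the day. In normoxic lung its mean was highest at 7:30 (15.5) and lowest at 19:30 (1.87), later than the extremes of the first ratio. In normoxic liver this ratio averaged 8.89 at 7:30 and 0.383 at 22:30, and 5 of 24 libraries had more ROR than REV-ERB transcript. In normoxic heart it never fell below 2.27 and reached 20.5. In normoxic cerebellum, where Rora was highest, it stayed between 1.27 and 3.48. These are ratios of transcripts and say nothing of protein.

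Rora had flat curves. Its amplitude was 1.14% of the MESOR in normoxic liver and reached 14.7% in normoxic lung, where the adjusted p was 0.0614. That lung value passed on scaled TPM (adjusted p = 0.00170), and after IH the lung amplitude was 3.33% with an adjusted p of 1. In normoxic cerebellum Rorb ranged from 1.67 ± 0.339 TPM at 13:30 to 4.12 ± 2.38 TPM at 7:30. The 7:30 libraries held 6.14, 4.73 and 1.49 TPM, so a single time point with discordant libraries carried the maximum, and the adjusted p was 0.285.

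The third question is whether IH left a difference in the mean 24-hour level. Rora was higher after IH in lung, muscle and heart, and no other combination passed an adjusted p of 0.05 in limma on log2(scaled TPM + 0.5). These 3 of 19 combinations stand against 31.8% of all genes tested over the 6 tissues, so the share of members called was below the background. With a change of 1.5-fold also required, 0 of 19 passed, against 4.26% of genes, and at an unadjusted p Rorb in cerebellum (p = 0.0159) was the one further value below 0.05.

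Rora in lung had the largest difference of these 3. Over the 24 normoxic libraries it held 6.77 TPM at the lowest, 10.1 at the median and 14.0 at the highest. The IH libraries ran from 13.4 through 17.4 to 20.4 TPM, and 22 of the 24 lay above every normoxic library. At each of the 8 time points all 3 IH libraries exceeded all 3 normoxic libraries, as they did for 7.32% of lung genes on deposited TPM. On scaled TPM, Rora no longer did so at all 8 points. The log2 difference was 0.42 ± 0.05 (SE) on scaled TPM, with an adjusted p of 1.36e-09, and 0.71 on deposited TPM, which is past 1.5-fold. Relative to the median lung gene it was 0.50 and 0.51 on these scales. With the number of detected genes as a term it was 0.54 (limma adjusted p = 2.85e-07). In lung 28.9% of genes rose and 41.5% fell at an adjusted p of 0.05, and 14.1% of genes had a larger log2 difference than Rora. Within replicates 1, 2 and 3 taken alone the difference was 0.21, 0.48 and 0.58.

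In muscle, Rora held 9.23 TPM at the lowest, 12.7 at the median and 16.8 at the highest in normoxia, and 12.7, 16.8 and 21.1 TPM after IH. The ranges overlapped and 12 of 24 IH libraries exceeded every normoxic one. The log2 difference was 0.28 ± 0.05 (SE, limma adjusted p = 0.000341), and 2.23% of muscle genes had a larger one, in a tissue where 5.48% of genes rose. Single replicates gave 0.13, 0.26 and 0.44. In heart the difference was 0.22 ± 0.07 (SE, adjusted p = 0.0134), from 3.39 ± 1.04 to 4.32 ± 0.940 TPM (SD, n = 24 each), where 28% of genes rose. The heart value did not pass without replicate 1 (adjusted p = 0.0828) or replicate 3 (0.165), and when the count of detected genes entered the model it was -0.06 (adjusted p = 0.802). With that term 113 of 12779 heart genes were called higher and 144 lower, against 3573 and 2207 without it. The loss of the call was thus shared by most heart genes called.

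In liver and kidney Rora differed by 0.10 (95% interval -0.18 to 0.38) and 0.04 (-0.08 to 0.17) on the log2 scale. With the replicate block the liver value had an adjusted p of 0.400 (limma). In cerebellum the difference was 0.19 (-0.01 to 0.39, limma adjusted p = 0.197), with a highest IH library of 102.3 TPM against 46.0 TPM in normoxia. That IH library, replicate 1 at 1:30, also had a low mean correlation with its tissue (0.857). Whether lung differed from the others was tested as an interaction of treatment and tissue. The log2 change of Rora in lung exceeded that in kidney by 0.38 ± 0.08 (SE, limma adjusted p = 4.61e-05) and that in heart by 0.20 ± 0.09 (adjusted p = 0.0401), where 24% and 21.7% of genes had a significantly higher change in lung. Against liver, muscle and cerebellum the adjusted p was 0.0716, 0.0927 and 0.0854. The interaction fit had no term for time, so the daily swing of the REV-ERB genes entered its residual, and neither of them passed. In all, 2 of 15 tests passed, against 57.5% of tests over all genes in either direction. The count was 5 on deposited TPM, all of them Rora. It was 6 when same-numbered libraries of both tissues at the same time were subtracted as 1 animal, which the labels do not state. The paper describes several organs collected from 3 mice per time point and condition, whereas the main fit took the tissues as independent. Subtraction also takes out the daily swing shared by both tissues, and the SE of Nr1d1 against heart went from 0.57 to 0.21 on the log2 scale. Those 6 were Rora against kidney, heart and muscle, Nr1d2 against kidney, and Nr1d1, with the lower change in lung, against kidney and heart. The Rora difference from heart did not pass without replicate 2 (adjusted p = 0.501) or replicate 3 (0.0515).

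**Figure D4:**
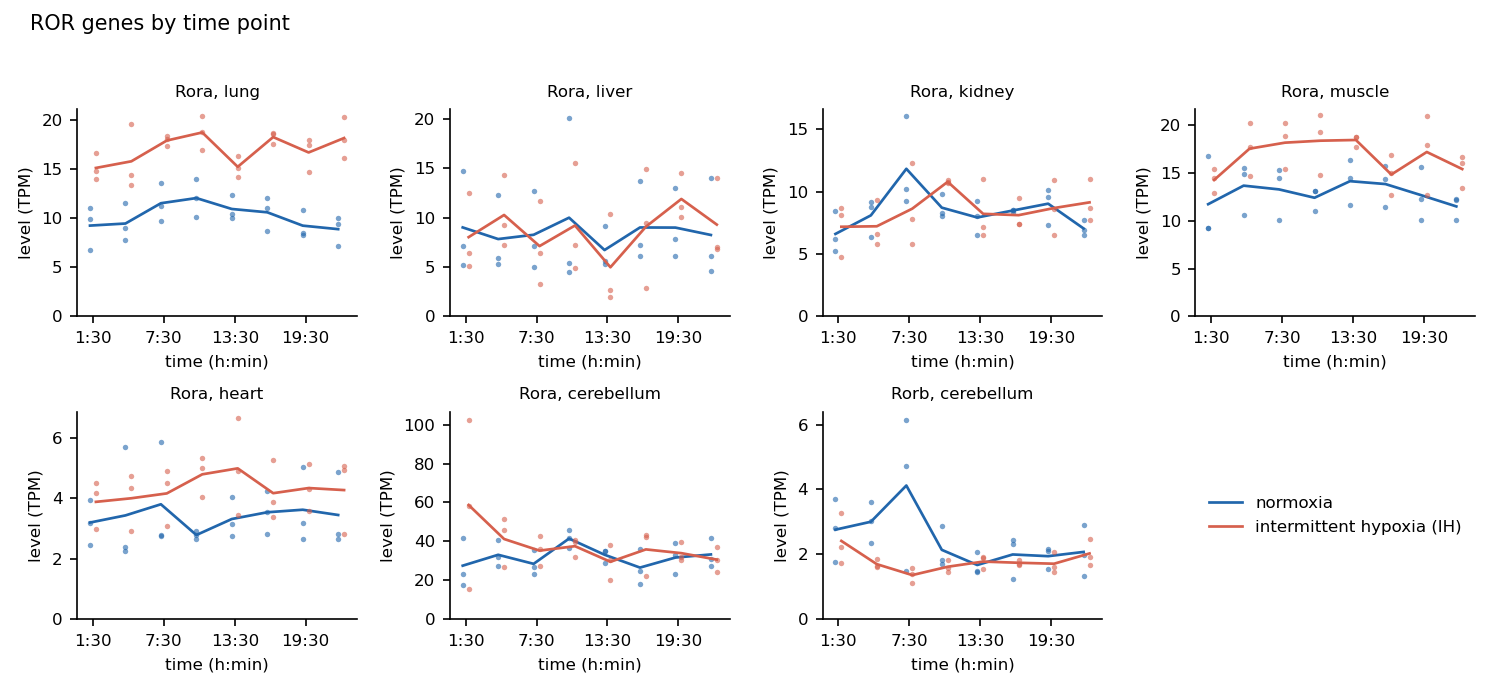
Level of Rora in 6 tissues and of Rorb in cerebellum in TPM against labelled time, drawn as in the plot of the REV-ERB genes. In lung all IH libraries of Rora lie above all normoxic libraries at each of the 8 times, and in muscle and heart the IH mean is the higher at 8 of 8 times with libraries that overlap.

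Rorb in cerebellum averaged 2.46 ± 1.16 TPM in normoxia and 1.79 ± 0.421 TPM after IH, and the IH mean was the lower at 7 of 8 times. The log2 difference was -0.30 ± 0.12 (SE) with an adjusted p of 0.0819. Replicate 3 alone had the opposite sign (0.19), and without that replicate the difference was -0.54 with an adjusted p of 0.00188. Without replicate 1 it was -0.10 and without replicate 2 -0.25. Without the cerebellum library of lowest correlation it was -0.35 (adjusted p = 0.0205). In lung, Rorb was 0.0445 ± 0.0308 TPM in normoxia and 0.139 ± 0.107 TPM after IH, below the filter, and passed limma when no filter was used (adjusted p = 0.000976).

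The REV-ERB genes gave wide intervals in the same fit, since their daily swing enters its residual. For Nr1d1 the log2 difference ran from -0.45 in lung (95% interval -1.31 to 0.41) to 0.16 in kidney (-0.61 to 0.93). For Nr1d2 it ran from -0.20 in cerebellum (-0.41 to 0.01) to 0.32 in liver (-0.30 to 0.94). With time point as a further term Nr1d1 passed as lower in lung (-0.45, limma adjusted p = 0.00631) and Nr1d2 as higher in liver (0.32, adjusted p = 0.0384). On deposited TPM the lung MESOR of Nr1d1 was 48.9 TPM in normoxia and 55.4 TPM after IH, a difference of 6.51 ± 7.99 TPM (SE, adjusted p = 0.503). On scaled TPM the difference was -3.57 TPM (adjusted p = 0.699), and on log2 of deposited TPM it was -0.15. Its sign thus turned with the scaling and also with the log scale. The lung libraries at 22:30 lay apart, with 38.4, 44.6 and 33.2 TPM in normoxia and 11.03, 11.96 and 15.4 TPM after IH.

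**Figure D5:**
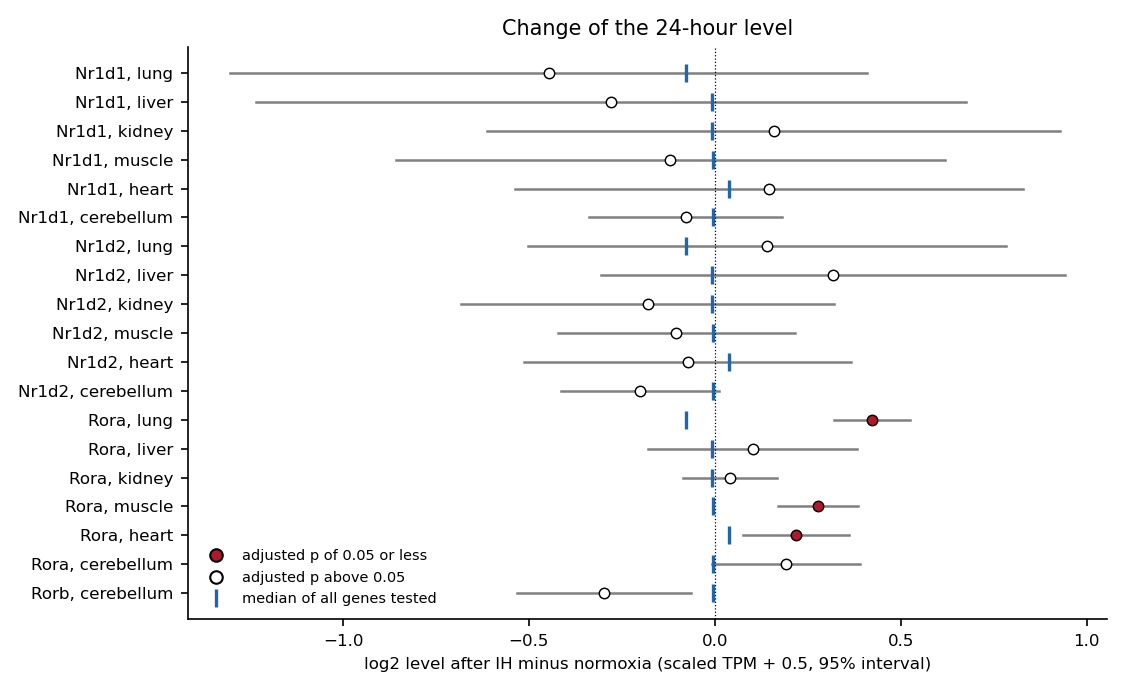
Log2 difference of the mean 24-hour level, IH minus normoxia, for the 19 tested combinations, on scaled TPM with a pseudocount of 0.5. Circles are limma estimates with 95% intervals, filled red where the adjusted p was 0.05 or less, and blue ticks are the median of all genes tested in that tissue. The 3 filled circles are Rora in lung, muscle and heart.

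The fourth question is whether the curves themselves differed between treatments, tested as the difference of the fitted cosine parameters. Nr1d2 in lung was the one combination of 10 that passed, for its MESOR and for its amplitude. The MESOR rose from 31.0 ± 1.31 to 48.7 ± 3.07 TPM (SE), a difference of 17.8 ± 3.34 TPM with an adjusted p of 1.79e-05. The amplitude rose from 24.7 ± 1.86 to 47.2 ± 4.35 TPM, a difference of 22.47 ± 4.73 TPM with an adjusted p of 0.00905. At 7:30 the lung libraries held 58.1, 53.6 and 48.03 TPM in normoxia and 119, 104 and 81.6 TPM after IH, and at 22:30 they held 15.2, 16.3 and 14.0 against 9.03, 10.3 and 8.56 TPM. The IH libraries were thus all higher near the peak and all lower at 22:30. In lung 60.4% of the 1074 genes compared had a MESOR difference and 1.4% an amplitude difference. The amplitude call ended on scaled TPM (15.8 TPM, adjusted p = 0.144) and on log2(TPM + 0.5) (0.47, adjusted p = 0.325), whereas the MESOR call held on both, with a difference of 9.91 TPM on scaled TPM (adjusted p = 0.00335). The log2 MESOR difference, 0.44, was of deposited TPM, on which the median lung gene stood 0.21 higher after IH. Curves were not fitted to log2 of scaled TPM. In the test of mean level, whose residual holds the daily swing, Nr1d2 in lung differed by 0.14 ± 0.33 on the log2 scale (SE, limma adjusted p = 0.711). With time point as a further term, which takes out that swing, Nr1d2 in lung was not among the combinations that passed. The log2 difference changed sign with the number of detected genes as a term, which was not entered in the curve tests.

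The change of Nr1d2 in lung was set against its change in the other 4 rhythmic tissues, a test chosen after the data were seen. On deposited TPM the amplitude rose by 21.3 ± 5.55 TPM more in lung than in liver (SE, adjusted p = 0.0110), by 20.6 ± 5.21 more than in kidney (0.00846), by 17.4 ± 5.01 more than in muscle (0.0296) and by 19.8 ± 5.38 more than in heart (0.00855). The share of genes with such an amplitude difference was 4.55%, 3.25%, 2.78% and 12.8% in that order. On scaled TPM and on the log2 scale 0 of the 4 amplitude differences passed, the lowest adjusted p being 0.0927. The 4 MESOR differences also passed on deposited TPM, as did those of 52.6%, 44.8%, 43.5% and 45.3% of genes, and 3 of 4 on each of the other scales, the liver being the exception on both. For Nr1d1 on deposited TPM the amplitude rose by 24.8 ± 11.9 TPM more in lung than in liver and by 15.2 ± 11.7 more than in heart (SE). Kidney and muscle lay between, and no Nr1d1 contrast passed.

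No other REV-ERB curve passed on deposited TPM with all libraries, which does not make every difference smaller. The Nr1d1 amplitude in lung was 48.1 ± 5.68 TPM in normoxia and 68.8 ± 9.78 TPM after IH (SE), a difference of 20.8 TPM with a 95% interval of -2.04 to 43.6. On log2(TPM + 0.5) the lung amplitude difference was 0.54 for Nr1d1 and 0.47 for Nr1d2. On scaled TPM it was 9.64 and 15.8 TPM, and none of these passed. The IH lung library of replicate 3 at 7:30 held 229 TPM, and without replicate 3 the amplitude difference was 4.95 TPM. The Nr1d2 amplitude in muscle was 13.4 ± 1.19 and 18.5 ± 1.16 TPM (SE), with an adjusted p of 0.569 that became 0.0408 without replicate 1. The Nr1d1 MESOR in heart was 17.7 ± 1.31 and 22.4 ± 1.62 TPM (SE, adjusted p = 0.0537), and passed without replicate 2 (0.0418), with the replicate block (0.0441) and on log2(TPM + 0.5) (0.0410), but not on scaled TPM (0.113). In liver the Nr1d1 MESOR difference was -3.57 TPM (adjusted p = 0.327), and without replicate 3 it was -7.29 TPM (0.0157). No acrophase passed with a shift of at least 4 hours, which 0.0931% of the genes compared did in lung, 0.903% in muscle and 0% in liver, kidney and heart. The largest shift in either REV-ERB gene over the 5 rhythmic tissues was an Nr1d2 peak 1.08 h earlier in muscle after IH (interval of the difference -1.92 to -0.25 h, adjusted p = 0.312).

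Thra, whose 3′ end lies over that of Nr1d1, was read as a check on shared reads, since the strand setting of the quantification is not given in the sources used here. Its curve was shallower and earlier, with a normoxic acrophase of 1.39 h in lung against 6.47 h for Nr1d1 and an amplitude of 16.2% of the MESOR. In liver Thra averaged 7.17 ± 2.41 TPM, less than Nr1d1 at its peak. In cerebellum it averaged 188 ± 65.8 TPM, above Nr1d1 at every time. The fitted normoxic peaks there were 12.1 h for Thra and 10.2 h for Nr1d1, neither of them rhythmic. Both genes were highest in the same normoxic library, replicate 3 at 10:30, with 354 and 71.3 TPM. Their lowest normoxic libraries differed. At 1:30 after IH the cerebellar libraries held 391, 131 and 30.7 TPM of Thra and 60.4, 14.7 and 6.04 TPM of Nr1d1. The share of reads that the genes could exchange was not tested.

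The receptors' partners and targets were followed as lists, chosen with earlier results of these data known. Of 15 clock loop genes, 14 were rhythmic in normoxic lung and 14 after IH, 14 and 14 in muscle, 12 and 11 in liver, 11 and 12 in kidney, 11 and 15 in heart, and 2 and 1 in cerebellum. Dbp, a D-box activator, had an amplitude of 146% of its MESOR in normoxic liver, and Npas2, a partner of BMAL1, one of 156%. At an adjusted p of 0.05, 70.4% of all genes differed in mean level in lung, 24.2% in liver, 19.8% in kidney, 10.4% in muscle, 45.2% in heart and 15% in cerebellum, the background for the list counts that follow. For the mean level, 5 of the 15 rose in lung and 1 in heart, with none lower in any of the 6 tissues, and the median log2 difference in lung was 0.18 against -0.08 for all genes. The 2 largest were Ciart, a repressor of the clock, with 1.07 ± 0.19 (SE, limma adjusted p = 2.79e-06) and Per3, a period gene, with 0.88 ± 0.27 (adjusted p = 0.00346).

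Of 10 genes known to carry REV-ERB and ROR response elements, 4 to 6 were rhythmic in the 5 peripheral normoxic tissues and 1 in cerebellum. Arntl, the main target, peaked at 21.8 ± 0.358 h in normoxic kidney (SE), with an amplitude of 101% of the MESOR, whereas Nr1d1 there peaked at 5.85 ± 0.533 h. Its acrophase in normoxic liver was 22.4 h and in lung 22.1 h. In level, 2 of 8 tested list genes fell in lung, 1 of 7 rose in liver and 2 of 9 rose in heart, with none called in kidney, muscle or cerebellum. Lpl, lipoprotein lipase, had the largest log2 difference of the list, -0.61 in cerebellum, and did not pass (adjusted p = 0.377).

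The 6 genes of the NCoR and HDAC3 complex, through which REV-ERB proteins act, were split in direction. In lung 2 rose and 2 fell, in heart 2 rose and 1 fell, in muscle 1 rose and 1 fell, in kidney 1 rose and in liver 2 fell. Tbl1xr1, a subunit of the complex, rose in muscle from 7.20 ± 1.45 to 10.9 ± 2.23 TPM (SD, limma adjusted p = 4.39e-06). Of 8 genes of haem synthesis, which supplies the ligand of REV-ERB, 2 rose and 4 fell in lung. Ppox, which makes protoporphyrin, rose there by 0.70 ± 0.09 and Alad, an early enzyme, fell by 0.60 on the log2 scale (limma adjusted p = 9.29e-09 and 1.45e-08). In the other tissues 2 rose and 1 fell in kidney, 3 rose and 1 fell in heart, 1 fell in cerebellum, and none passed in liver or muscle. Alas1, the rate-limiting enzyme, was rhythmic in normoxic liver with an amplitude of 103% of the MESOR (adjusted p = 6.05e-06), and after IH its adjusted p was 0.492. That difference between treatments was not tested. In normoxic cerebellum the amplitude was 15.4% for Tbl1xr1 and 19.4% for Ppox, and neither passed (adjusted p = 0.962 and 0.750).

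Among 5 genes that control REV-ERB protein turnover, 2 rose and 2 fell in lung, 2 rose in kidney, 2 rose in muscle, 1 rose and 1 fell in heart and 1 fell in liver. Huwe1, a ubiquitin ligase, rose in lung by 0.50 ± 0.06 on the log2 scale (SE, limma adjusted p = 5.16e-09), and Mycbp2, another ligase, fell by 0.34 in liver (adjusted p = 0.0270). The largest relative amplitudes were 51.4% for Huwe1 in normoxic cerebellum (adjusted p of rhythm 0.0181) and 13.2% for Mycbp2 in liver (0.605). Given that 70.4% of lung genes passed in one direction or the other, the lung counts of the complex, haem and turnover lists were near the background.

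Finally, genes were ranked by how closely their normoxic time-point means followed each receptor, after centring log2 values within each tissue. Over 48 combinations of tissue and time and 9875 other genes, Nr1d1 was closest to Nr1d2 (r = 0.704), Dbp (0.689) and Tmem86a (0.688). Nr1d2 was closest to Dbp (r = 0.934), to Tef (0.851), another D-box activator, and to Per3 (0.817), with Nr1d1 in rank 11. In the IH libraries the same pairs had r of 0.945, 0.885 and 0.855. Rora was closest to Taok1 (0.757), Zhx3 (0.752) and Lnpep (0.745), and its r with Nr1d1 was 0.0390 and with Nr1d2 0.375. Rorb could be compared in cerebellum alone, over 8 time points, where Phrf1 (0.991), Hlx (0.988) and Foxp2 (0.986) came first, with r of 0.488, 0.736 and 0.309 after IH. All points of a tissue share libraries and scaling, and these values are descriptions across genes with no test.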

How the data were processed

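RNA was measured by poly(A) sequencing with a directional library kit. The authors quantified reads against an ENSEMBL mouse reference with kallisto and deposited TPM per gene, a unit scaled to a fixed total within each library and corrected for transcript length. The submitters' processing notes also name FastQC 0.11.3, bcl2fastq and DESeq2. TPM keeps no depth, so no counts were recovered, and the planned tests for log-scale values were used.

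TPM were scaled within a tissue by the median of ratios, and log2(value + 0.5) was tested with limma 3.58.1 (R 4.3.3) between 24 and 24 libraries, leaving out genes whose mean was below 1 TPM. Rhythm was tested on deposited TPM, leaving out genes that never reached 1 TPM, by JTK and Lomb-Scargle tests at 24 hours. Their p-values were combined by Fisher's method, which treats dependent tests as independent and so gives p-values that are too small. Cosine parameters were compared by Wald tests after CircaCompare, for genes rhythmic in at least 1 treatment with a cosine p of 0.05 or less in both. All p-values are two-sided. Benjamini-Hochberg adjustment was over all genes tested in a tissue or pair of tissues for level and rhythm. Curve differences were adjusted over the genes compared in that tissue only (1074 in lung, 217 in heart). Those of the lung against another tissue on deposited TPM were adjusted over 86 to 154 genes. The limma test of treatment, the rhythm test and the amplitude comparison were tried on simulated data.

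The 4 members and all lists were chosen with earlier results of these data known. Genes outside the members were named by a rule: per list, the 2 with the largest absolute log2 difference and the 2 with the largest relative amplitude, the 3 genes most alike to each member, and Thra as the overlapping neighbour. Some genes that the rule names are not reported here. Further acrophases of Arntl were added after its values were seen. The labels list replicates as separate samples without naming their animals, so p-values measure the spread between these samples. Promoters came from RefSeq (GRCm38.p6), where all 4 members were matched, and gene positions from GENCODE M21 on GRCm38, the build of the mm10 named in the labels. Alternatives covered the pseudocount, scaling, filters, model terms, the rhythm test and each replicate left out.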

Additional observations from a re-analysis of the deposited data

Results flagged for a closer look

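In 10 results a change after IH differed between the lung and another tissue by a test of the difference itself. They are not independent, since each uses the same lung libraries, and the Nr1d2 contrasts were chosen after the data were seen. The log2 change of Rora was 0.38 larger in lung than in kidney and 0.20 larger than in heart. The amplitude change of Nr1d2 was larger in lung by 21.3 TPM against liver, 20.6 TPM against kidney, 17.4 TPM against muscle and 19.8 TPM against heart. The MESOR change of Nr1d2 was larger in lung by 15.8 TPM against liver, 20.6 TPM against kidney, 16.9 TPM against muscle and 16.7 TPM against heart. These values stand against 24% and 21.7% of all genes for Rora, 2.78% to 12.8% for the amplitudes and 43.5% to 52.6% for the MESORs. On scaled TPM and on log2(TPM + 0.5) 0 of the 4 amplitude differences passed, and the MESOR difference from liver did not pass on either (adjusted p = 0.116 and 0.428). Lung libraries also differed between treatments in genes detected, whose part in these differences was not tested.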

How the results depend on the processing

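The rhythm counts stayed between 9 and 12 in normoxia and between 10 and 12 after IH under all alternatives run, and Rora stayed higher in lung and muscle at an adjusted p of 0.05, except in muscle with 1 replicate number taken alone, where the log2 difference was 0.13 in replicate 1 (adjusted p = 0.474, limma) and 0.26 in replicate 2 (adjusted p = 0.0520). Members past 1.5-fold were 1 on deposited TPM and 0 otherwise. Members past an adjusted p alone were 6 with no filter on low values and 5 with time point as a term. MESOR differences were 2 on log2(TPM + 0.5), 2 on scaled TPM and 2 with the replicate block (added were Nr1d1 in heart on log2 and with the block, and Rora in lung on scaled TPM), and 1 to 2 with a replicate left out. Amplitude differences were 0 on log2 and 0 on scaled TPM, and 1 to 2 with a replicate left out. Differences of the lung from other tissues were 5 on deposited TPM and 1 to 3 with a replicate left out. They were 6 with the replicate block, which subtracts same-numbered libraries of the same time as 1 animal. The amplitude change of Nr1d2 in lung exceeded that of 0 of 4 tissues on log2 and 0 of 4 on scaled TPM. The cause was not tested for any of these.

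Some values that were not called changed sign. The log2 level of Nr1d2 in heart became 0.047 on deposited TPM, and that of Rora in liver -0.014. With detected genes as a term, the log2 level became 0.17 for Nr1d2 in heart, -0.36 for Nr1d2 in lung and -0.064 for Rora in heart, which had been called. With a replicate left out it ran from -0.21 to 0.050 for Nr1d1 in cerebellum, from -0.14 to 0.029 for Nr1d2 in heart and from -0.0084 to 0.092 for Rora in kidney. On log2(TPM + 0.5) the MESOR difference became -0.15 for Nr1d1 in lung, -0.023 for Nr1d1 in muscle and -0.0067 for Nr1d2 in muscle, and the amplitude difference of Nr1d2 in liver -0.15. On scaled TPM the MESOR difference became -3.57 for Nr1d1 in lung, -2.60 for Nr1d1 in muscle, -0.688 for Nr1d2 in heart and -1.20 for Nr1d2 in muscle, and the amplitude difference of Nr1d1 in muscle -0.129. With a replicate left out the MESOR difference ran from -2.39 to 3.50 for Nr1d1 in kidney, -2.38 to 12.9 for Nr1d1 in lung, -2.55 to 3.57 for Nr1d1 in muscle, -0.908 to 3.69 for Nr1d2 in heart, -0.411 to 4.66 for Nr1d2 in liver and -0.0971 to 2.52 for Nr1d2 in muscle. The amplitude difference ran from -4.15 to 4.86 for Nr1d1 in kidney, -2.70 to 7.31 for Nr1d1 in muscle and -1.27 to 3.76 for Nr1d2 in liver. The change in lung minus liver became 0.24 for Nr1d1 and 0.24 for Nr1d2 on deposited TPM, and ran from -0.37 to 0.020 for Nr1d1 with a replicate left out.

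The same replicate numbers occur in both treatments. The deviations of same-numbered libraries correlated by more than 0.1 in 5 of 24 pairs in lung, 16 in liver, 6 in kidney, 12 in muscle, 8 in heart and 7 in cerebellum, so the numbers were not taken to pair the samples. With the replicate block 0 members passed 1.5-fold, 3 passed an adjusted p alone, 11 were rhythmic in normoxia, with Rora in lung added (adjusted p = 0.0195), and 10 after IH. Leaving out single libraries and comparing the lung with other tissues by curve were chosen after the data were seen. TPM keeps no depth, so the limit of detection is unknown.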
